A study of Mus musculus with 4 samples.

Results

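The Skint genes of the mouse, Skint1 to Skint10, were described in sorted epidermal cells of newborn animals. They were taken by symbol: all 10 symbols were present among the 24453 of the count tables, and 7 of the 10 had enough reads to be among the 14550 genes tested. RNA had been sequenced from back-skin cells at postnatal day 0, collected by a cell sort on 3 surface proteins (EpCAM present, Sca1 present, much α6-integrin), which takes the epidermis between hair follicles and enriches for progenitors. The 2 mutant libraries came from Ring1a-/- Ring1b-/I53A mice, which lack Ring1a and carry a null Ring1b allele over the I53A allele, whose protein is catalytically inactive, so that the loss of Ring1a, the null allele and the inactive allele cannot be told apart. The 2 control libraries are labelled only as control, with no alleles named. Strain and animals per library are not stated, so p-values measure the spread between these libraries, which may be technical.

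Skint genes encode membrane proteins related to butyrophilins, with immunoglobulin-like domains followed by transmembrane segments. Their name stands for selection and upkeep of intraepithelial T cells: Skint1, made by thymic epithelium and keratinocytes, is required for the dendritic epidermal T cells, the γδ T cells that populate mouse epidermis, to develop normally. Ring1a and Ring1b are the ubiquitin ligases of Polycomb repressive complex 1, which marks histone H2A and silences developmental genes, many of which have promoters rich in CpG.

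The 4 libraries held 15505018 to 21543385 counts. Values of a group are given for replicate 1 and then replicate 2. The label of the mutants was checked first on the targeted genes. Ring1, the symbol of Ring1a, was at 24.2 and 33.3 CPM in controls and at 2.54 and 2.91 CPM in mutants, lower in both of them. Rnf2, the symbol of Ring1b, was at 58.5 and 45.8 CPM in controls and at 58.9 and 59.1 CPM in mutants, not lower in them. The count files do not separate its alleles, so these values check neither the I53A allele nor the null allele.

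All 10 genes lie together on chromosome 4 of GRCm38 (the assembly also called mm10), within 2.08 Mb, from 111919392 to 113999503. In chromosomal order they are Skint8, Skint7, Skint1, Skint4, Skint3, Skint9, Skint2, Skint10, Skint6 and Skint5, and each is annotated as protein coding. Skint1 spans 112006269 to 112029538 on the plus strand. The plus strand also carries Skint8, Skint7, Skint4, Skint3 and Skint2, while Skint9, Skint10, Skint6 and Skint5 are on the minus strand. The gene spans ran from 15.3 kb (Skint7) to 521.6 kb (Skint5).

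Because the family arose by duplication, the sequences were compared first, to see how far a read of 100 bases can be assigned to 1 member. The coding sequences of Skint7 and Skint8 were 90.5% identical over 1185 aligned bases, those of Skint5 and Skint6 88.2% over 3720, and those of Skint9 and Skint10 86.1% over 955. Among members that aligned with most of its length, Skint1 was nearest to Skint2, with 74.2% identity over 1066 bases. Of all windows of 100 bases in the annotated transcripts, only Skint7 and Skint8 had any that occurred exactly in another gene: 138 of 3952 windows of Skint7 (3.49%) and 138 of 4685 of Skint8 (2.95%). With up to 2 mismatches allowed among the Skint genes, 6.53% of Skint7 windows and 5.51% of Skint8 windows matched the partner. The same held for 5.29% of Skint5 windows with Skint6 and 6.36% of Skint6 windows with Skint5, while Skint1, Skint2, Skint3, Skint4, Skint9 and Skint10 had 0 such windows. Counts of Skint7 and Skint8, and of Skint5 and Skint6, are therefore uncertain over these windows, and no source used here states how reads with several matches were counted.

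The longest coding run that Skint7 and Skint8 share, 237 bases, is shown because it holds every window that cannot be assigned between them. It is printed with its flanks (284 bases, inside 1 coding exon of each gene, plus strand, GENCODE M21 transcripts), and capitals mark the 2 bases that differ. The Skint7 stretch is chr4:111980103-111980386 and the Skint8 stretch is chr4:111928435-111928718.
Skint7: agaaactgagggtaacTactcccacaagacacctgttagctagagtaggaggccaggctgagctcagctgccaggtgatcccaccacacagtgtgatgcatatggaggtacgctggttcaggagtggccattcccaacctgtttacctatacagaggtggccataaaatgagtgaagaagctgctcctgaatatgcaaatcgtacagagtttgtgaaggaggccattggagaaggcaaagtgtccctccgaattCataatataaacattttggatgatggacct
Skint8: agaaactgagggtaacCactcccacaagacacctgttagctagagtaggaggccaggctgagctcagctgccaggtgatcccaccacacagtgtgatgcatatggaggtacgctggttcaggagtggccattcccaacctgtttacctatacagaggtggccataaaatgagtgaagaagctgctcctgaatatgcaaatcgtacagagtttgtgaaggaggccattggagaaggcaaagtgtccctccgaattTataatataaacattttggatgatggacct

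The promoter windows of Skint5 and Skint6 are shown because they are nearly alike while reads of Skint5 were almost absent. Each window runs from 250 bases before to 50 after the RefSeq start on GRCm38.p6, minus strand, at chr4:113999454-113999753 for Skint5 and chr4:113286924-113287223 for Skint6. Without gaps 269 of 300 bases were identical (89.7%), and capitals mark the 31 that differ.
Skint5: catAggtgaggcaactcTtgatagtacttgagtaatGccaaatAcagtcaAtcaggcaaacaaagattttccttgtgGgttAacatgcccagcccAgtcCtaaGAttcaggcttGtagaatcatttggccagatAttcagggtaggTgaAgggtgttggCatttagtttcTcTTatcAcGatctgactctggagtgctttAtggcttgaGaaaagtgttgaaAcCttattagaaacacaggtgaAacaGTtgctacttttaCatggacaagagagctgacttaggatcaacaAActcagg
Skint6: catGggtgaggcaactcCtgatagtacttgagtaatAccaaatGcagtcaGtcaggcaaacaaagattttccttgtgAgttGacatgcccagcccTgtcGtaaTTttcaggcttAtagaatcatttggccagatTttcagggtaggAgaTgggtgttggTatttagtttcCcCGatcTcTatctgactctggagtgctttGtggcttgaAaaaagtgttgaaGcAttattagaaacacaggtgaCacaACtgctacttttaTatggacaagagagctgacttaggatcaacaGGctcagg

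Skint1, the most abundant member, is shown with its promoter window at chr4:112006019-112006318, plus strand, on GRCm38.p6. The capitals mark the only match to TATAAA on either strand, which begins 40 bases before the annotated start.
Skint1: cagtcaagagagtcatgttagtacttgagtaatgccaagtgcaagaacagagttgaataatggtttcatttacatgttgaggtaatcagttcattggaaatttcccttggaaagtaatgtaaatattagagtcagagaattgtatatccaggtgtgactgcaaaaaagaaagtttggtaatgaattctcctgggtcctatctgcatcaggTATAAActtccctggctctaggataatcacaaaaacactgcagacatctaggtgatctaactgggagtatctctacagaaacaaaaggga

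RefSeq windows were found for all 10 members, 11 in all since Skint4 has a pair of starts. They held 0 to 2 CpG dinucleotides each, and 4 of the 11 held none, whereas the median over 32851 promoter windows of mouse genes was 7 (quartiles 3 and 20). Skint8 and Skint6 had 2 CpG, and 23.3% of all windows held as few. Their GC content ran from 35.3% (Skint10) to 44.3% (the upstream Skint4 start), against a median of 52.7%. TATAAA on either strand was found in 7 of the 11 windows and in 13.6% of all windows. Other motifs were searched too. CCAAT was in 4 of the 11 windows and in 37.4% of all windows. The AP-1 motif TGANTCA (N for any base) and the grainyhead motif AACCGGTT were in 0 of the 11, and in 7.8% and 0.1% of all windows. These shares were not adjusted for the low GC content of the Skint windows. Of the nearly alike pair printed above, the Skint6 window held a match to TATAAA and the Skint5 window did not. The Skint6 match is on the opposite strand (TTTATA) and lies after the annotated start, not before it as in Skint1. Whether it bears on the reads of either gene was not tested. A match to these letters is a description and not evidence of a binding site.

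Skint1 was the most abundant member in every library. Levels are given as CPM (counts over the scaled library size) and, for comparisons between genes, as CPM per kb of merged exon. Per kb, Skint1 ranged from 6.64 to 13.4 over the 4 libraries, above Skint7 with 2.59 to 3.54, and these ranges did not overlap. Skint9 (0.964 to 2.51), Skint4 (0.714 to 1.28) and Skint8 (0.547 to 1.17) followed, and in this order neighbours overlapped. Skint6 (0.138 to 0.436) lay below Skint8 without overlap, and its range overlapped that of Skint3 (0.0662 to 0.201). Skint10, Skint2 and Skint5 had the lowest means over the 4 libraries, each with 0 reads in at least 1, but in control replicate 2 Skint10 (0.284) lay above Skint6 (0.277) and Skint3 (0.121). Divided by the longest coding transcript instead, an alternative added after the data were seen, Skint1 (mean 27.1 CPM per kb) and Skint7 (6.87) kept their ranks, while Skint8 moved from rank 5 to rank 3 (0.861 to 3.11 CPM per kb) and Skint10 from rank 8 to rank 7, above Skint3.

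**Figure D1:**
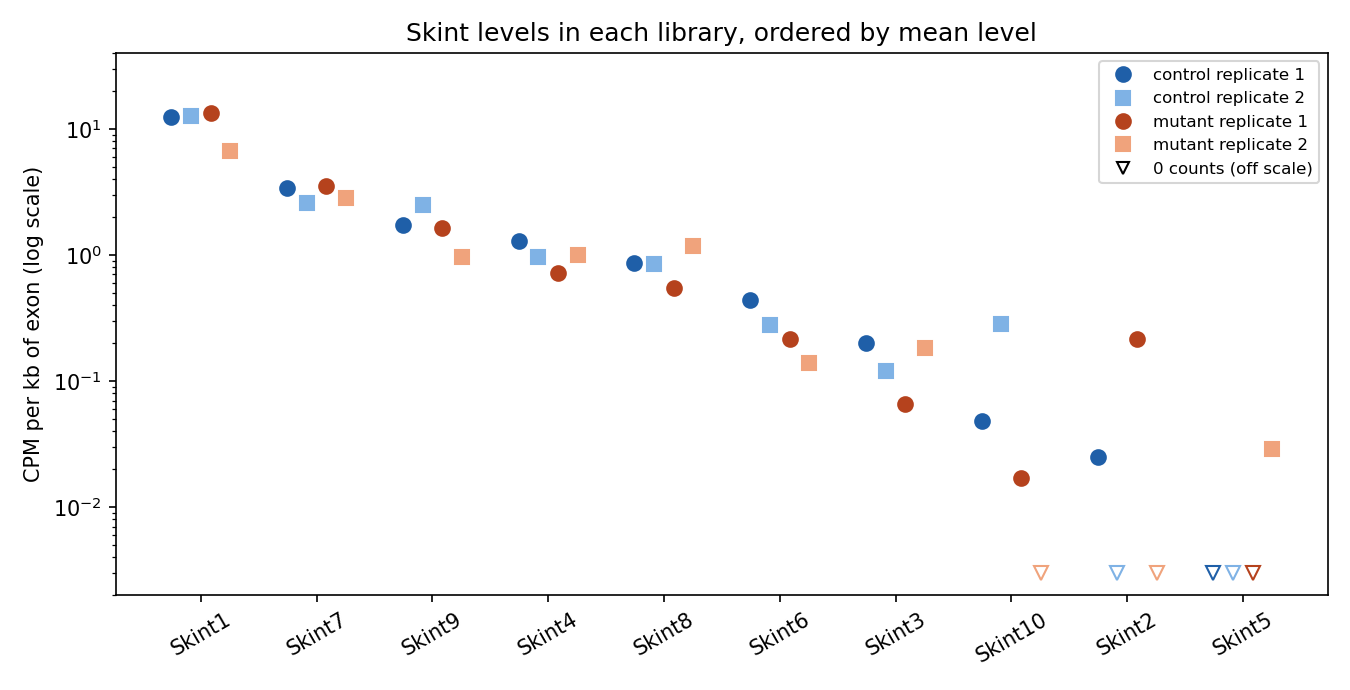
Level of each Skint gene in each library, as CPM per kb of merged exon on a log axis, ordered by mean level; circles are replicate 1, squares replicate 2, and open triangles mark libraries with 0 counts. Skint1 lies above all other members in every library, from 6.64 to 13.4 CPM per kb.

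Mutant and control epidermis were compared to ask whether these genes differ with the combined Ring1a and Ring1b genotype. None of the 7 tested members passed the test in either direction (adjusted p from 0.476 to 0.971 by edgeR's quasi-likelihood method with Benjamini-Hochberg adjustment), and 0 of 7 had an unadjusted p under 0.05, as 18.7% of all tested genes had. DESeq2 and limma-voom likewise called 0 of the 7. Over all tested genes 6.71% were called, 5.68% as higher and 1.04% as lower. The log2 fold changes of mutant over control were negative for 5 members and positive for 2, with a median of -0.35, beside -0.01 over all tested genes. With 2 libraries a group the intervals were wide, and they do not show that the levels were alike. The narrowest was that of Skint7, whose 95% interval ran from 0.689-fold to 1.61-fold of control.

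Skint1 had 634 and 577 reads in the controls and 635 and 454 in the mutants. That gave 37.7 and 38.2 CPM in controls, and 40.4 and 20.01 CPM in mutants. Mutant replicate 2 thus stood alone at a low level, while mutant replicate 1 was the highest of the 4, so the groups overlapped. The means were 38.0 ± 0.351 CPM and 30.2 ± 14.4 CPM (SD, n = 2 each). The fitted log2 fold change was -0.35 ± 0.28 (SE), with a 95% interval from -0.98 to 0.28 and an edgeR adjusted p = 0.601.

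The call for Skint1 turned on mutant replicate 1. Without that library, with mutant replicate 2 alone in its arm and assumed to vary like the controls, the log2 fold change was -0.92 ± 0.21 (adjusted p = 0.00916, edgeR quasi-likelihood test), and without mutant replicate 2 it was 0.09. Mutant replicate 1 was also the only library with reads typical of a male: Ddx3y of the Y chromosome was at 119 CPM there and at most 0.119 CPM in the other 3, and Xist was at 11.0 CPM there and 5998 to 8390 CPM in the others. The value without mutant replicate 1 is therefore also the comparison among the 3 libraries with a female pattern. Sex and library cannot be told apart in the mutant group.

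Skint7, the gene next to Skint1, was at 13.5 and 10.3 CPM in controls and at 14.1 and 11.2 CPM in mutants. In both groups replicate 1 was the higher library, and the groups overlapped almost fully (log2 fold change 0.07 ± 0.27 SE). Skint8 was at 4.05 and 3.98 CPM in controls and at 2.54 and 5.46 CPM in mutants, so that its control libraries were alike and its mutant libraries lay on either side of them (log2 fold change 0.06 ± 0.45 SE). Since reads from their identical windows could be counted for either gene, or for neither, the sum was taken too. It was 17.5 and 14.3 CPM in controls and 16.7 CPM in each mutant library, within the range of the controls.

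Skint4 was at 5.60 and 4.24 CPM in controls and at 3.12 and 4.36 CPM in mutants. Its groups overlapped, with mutant replicate 1 lowest (log2 fold change -0.37 ± 0.40 SE). Skint3 had 13 and 7 reads in controls and 4 and 16 in mutants, and it also overlapped (log2 fold change -0.27 ± 0.85 SE).

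Skint6 and Skint9 were the 2 tested members whose groups did not overlap, both with lower mutant values. Skint9 was at 2.38 and 3.45 CPM in controls and at 2.23 and 1.32 CPM in mutants (log2 fold change -0.76 ± 0.52 SE, adjusted p = 0.514, edgeR quasi-likelihood test). Skint6 had 28 and 16 reads (1.67 and 1.06 CPM) in controls and 13 and 12 reads (0.827 and 0.529 CPM) in mutants (log2 fold change -1.07 ± 0.69 SE, adjusted p = 0.476, edgeR quasi-likelihood test). Over all tested genes 47.9% had groups that did not overlap, 23.5% with lower and 24.5% with higher mutant values. The 2 of 7 members are below the share for either direction and near the share for lower values. An antisense gene, Gm12823, shares at most 63 bases of exon with Skint6 in the annotation, and without a stated strand setting reads from it cannot be told apart.

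**Figure D2:**
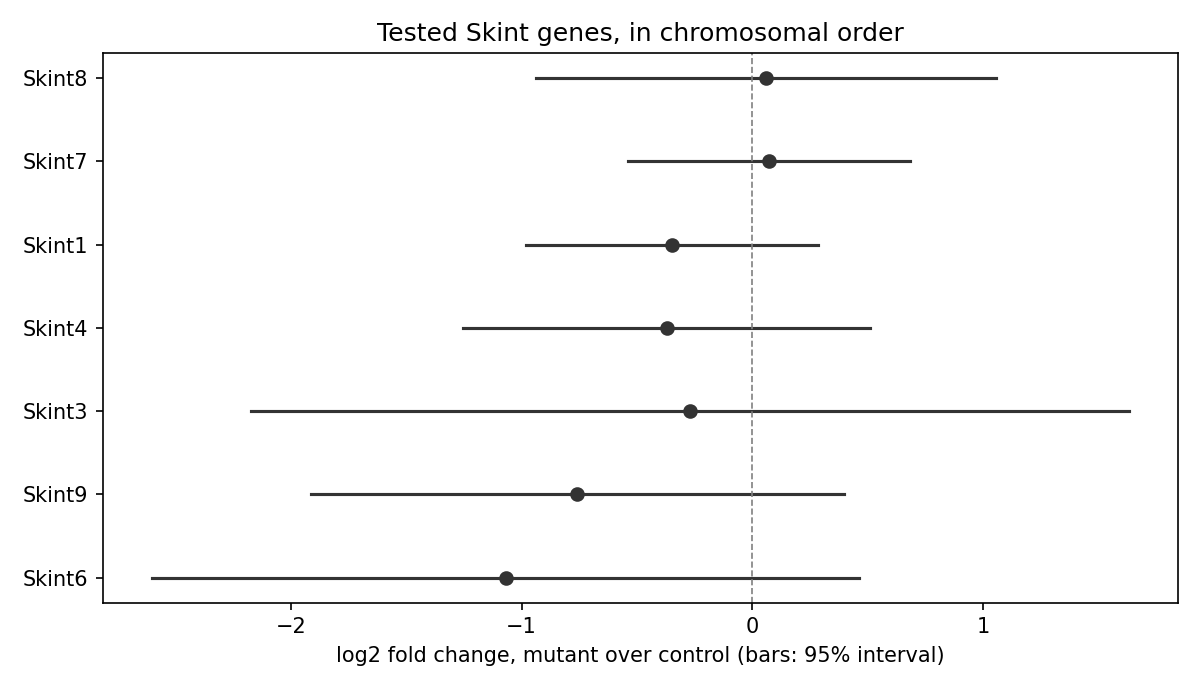
Log2 fold change of mutant over control for the 7 tested Skint genes in chromosomal order; points are the fitted values and bars their 95% intervals from the edgeR fit. Every interval includes 0, from the narrowest for Skint7 to the widest for Skint3 (-2.17 to 1.63).

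The 3 members that were not tested had few reads. Skint10 had 3 and 16 reads in controls and 1 and 0 in mutants, so most of its reads came from control replicate 2. Its ratio of pooled counts, control over mutant, was 22.9 with an exact 95% counting interval from 3.64 to 951. With no low-count filter its adjusted p was 0.272 (edgeR quasi-likelihood test). Skint2 had 1 and 0 reads in controls and 8 and 0 in mutants, all but 1 in mutant replicate 1 (pooled ratio of mutant over control 6.64, interval 0.891 to 295). Skint5 had 0 reads in 3 libraries and 3 in mutant replicate 2, which is at the floor of 3 counts (0.132 to 0.199 CPM by library), so that no fold is given. Intervals and floors cover counting error only, since reads without molecular identifiers are not independent molecules. Skint6, whose promoter window printed above is nearly the same, had at least 12 reads in each library.

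**Figure D3:**
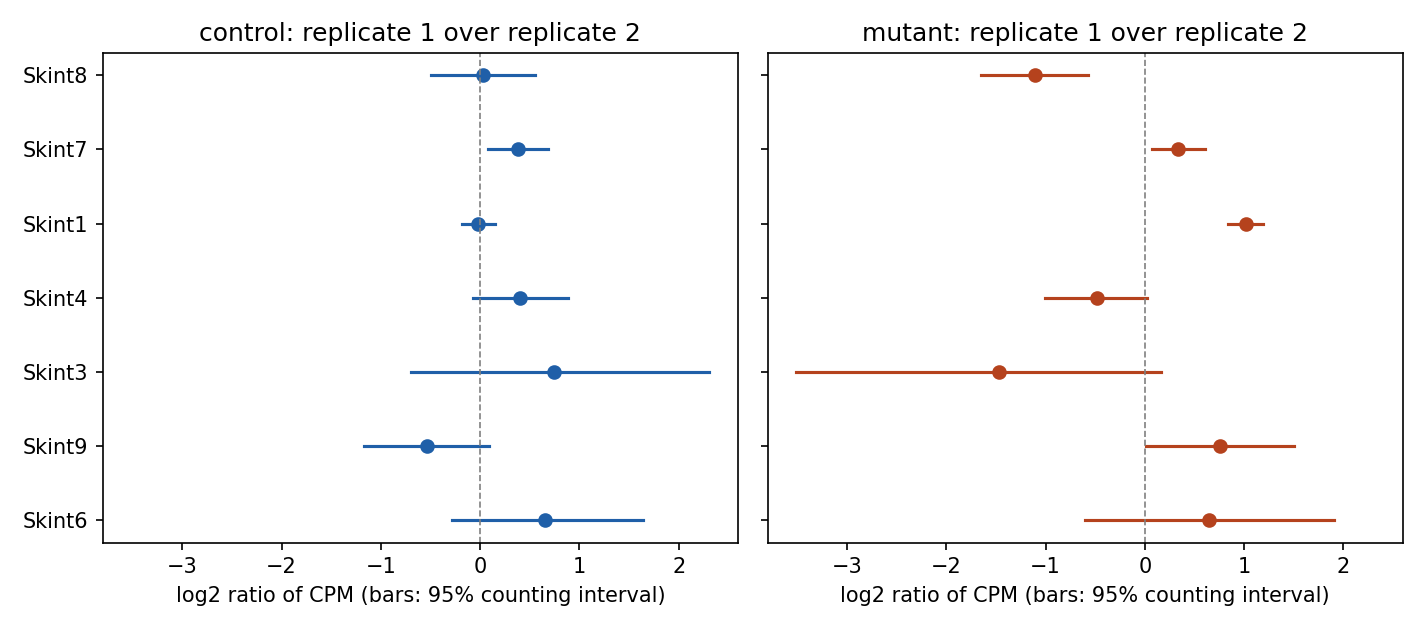
Log2 ratio of CPM, replicate 1 over replicate 2, within the controls (left) and within the mutants (right) for the 7 tested Skint genes; bars are exact 95% intervals for counting error only. In mutants Skint1 lies at 1.01 and Skint8 at -1.10, in opposite directions, while in controls both are near 0.

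Libraries of 1 group were also compared with each other. The exact 95% counting interval of the ratio of replicate 1 to replicate 2 excluded 1 for 4 of 7 members in mutants (Skint1, Skint7, Skint8 and Skint9) and for 1 of 7 in controls (Skint7). Over all tested genes with at least 20 reads in the pair it did so for 59.0% in mutants and 47.4% in controls, so the members' count in mutants is near that share, and whether the groups differ in it was not tested. Skint1 was 2.02-fold higher in mutant replicate 1 (interval 1.79 to 2.28), and among 4387 tested genes within 2-fold of its mean level 1.44% differed at least as much between these libraries. Skint8 differed the other way, 2.15-fold higher in mutant replicate 2 (interval 1.49 to 3.15), and 12.7% of 2902 genes of like level differed as much. Skint7 and Skint9 differed no more than many genes: 45.5% and 38.0% of genes of like level differed as much between the mutant libraries. In controls the Skint1 ratio was 0.987 (interval 0.880 to 1.11). The reads of Skint1 over those of Skint8 were 9.32 and 9.62 in controls and 15.9 and 3.66 in mutants.

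Summed over the 10 members, Skint reads came to 65.9 and 62.8 CPM in controls and to 64.1 and 43.7 CPM in mutants. Skint1 held 57.3% and 60.9% of them in controls, and 63.1% and 45.8% in mutants. With Skint1 left out, the sums were 28.2 and 24.6 CPM in controls and 23.7 and 23.7 CPM in mutants. The mutant libraries thus differed in total by Skint1, with the rest at the same sum.

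**Figure D4:**
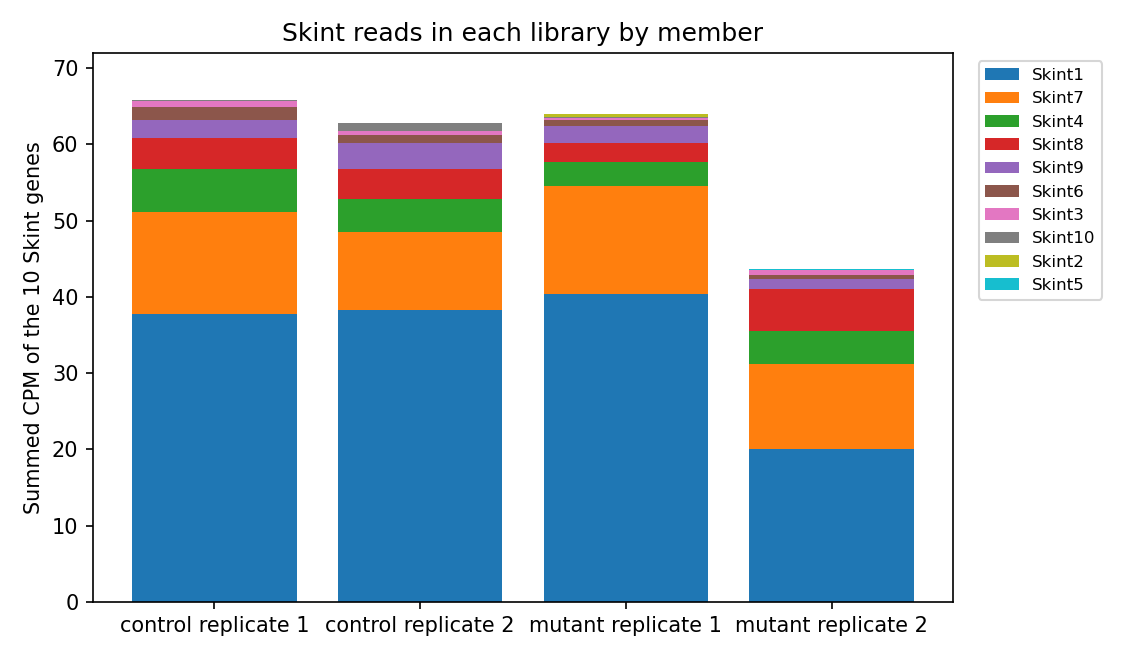
Summed CPM of the 10 Skint genes in each library, stacked by member with Skint1 at the bottom. The bars reach 65.9 and 62.8 CPM in controls and 64.1 and 43.7 CPM in mutants, and the part above Skint1 is between 23.7 and 28.2 CPM in all 4.

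By the root mean square distance of log2 profiles over the 4 libraries, centred on each gene's mean, the 5 genes nearest to Skint1 were Impg2, Asna1, Vil1, Hist1h2bg and Mill2, at distances of 0.02 to 0.05. All 5 shared its low value in mutant replicate 2, as Asna1 did with 34.8, 33.4, 37.2 and 18.5 CPM in the order above. Among the other members with a mean of at least 1 CPM, Skint9 was nearest, at rank 467 of 13668 genes, and Skint8 farthest, at rank 11492. These ranks over 4 libraries describe shape only.

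The genes within 1 Mb of the cluster included 5 tested neighbours, of which 1 rose and none fell. Of all tested genes, 5.68% were called higher and 1.04% lower. Trabd2b, which encodes a membrane protease that inactivates Wnt proteins, starts 407 kb beyond the end of Skint5. It rose from 11.2 and 16.9 CPM in controls to 58.5 and 45.5 CPM in mutants (log2 fold change 1.89 ± 0.24 SE, adjusted p = 0.00119, edgeR quasi-likelihood test). The other four were Bend5, Spata6, Slc5a9, which ends 16.5 kb before Skint8, and Cmpk1, and their groups overlapped. Skint11, a further family member 164 kb past Skint5, had 0 reads in controls and 1 and 2 in mutants.

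**Figure D5:**
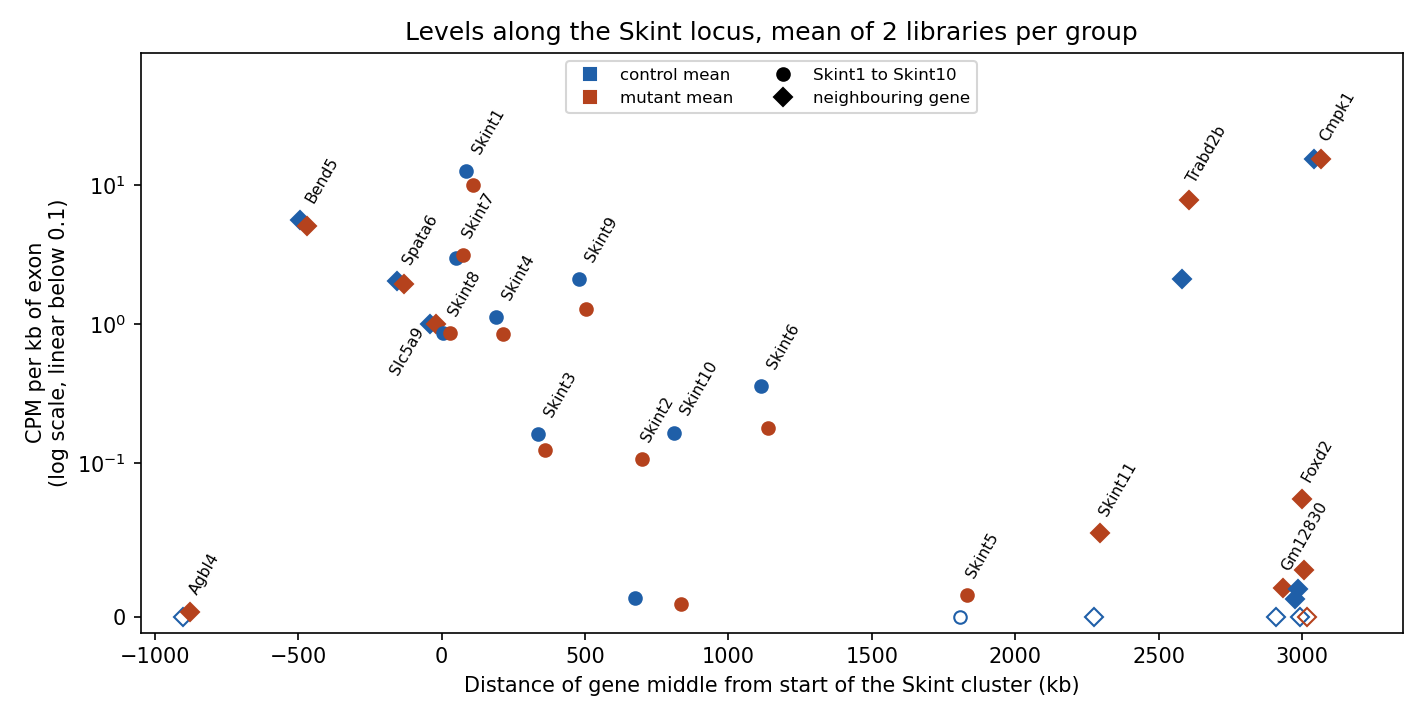
Mean level in controls (blue) and mutants (red) of each gene within 1 Mb of the Skint cluster, as CPM per kb of exon on a log axis that is linear below 0.1, against the distance of the gene's middle from the start of the cluster in kb; the 2 means of a gene are drawn side by side, open symbols are at 0, and Foxd2os and Foxe3, near Foxd2, are unnamed. Trabd2b stands out with its mutant mean above its control mean, while the Skint genes with most reads (Skint1 and Skint7) lie near the start of the cluster.

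Lists of related genes give the setting. Beside the counts called in these and the marker lists below, 5.68% of all tested genes were called higher and 1.04% lower. Among 12 other genes of the butyrophilin family and its relatives with rows in the files, 4 were tested and none was called by edgeR. Named after their values were seen, Btn2a2 had 0 and 0 reads in controls and 21 and 15 in mutants (edgeR adjusted p = 0.0841), and Btn1a1 had 13 and 0 in controls and 50 and 64 in mutants (edgeR adjusted p = 0.0629). Ermap, a relative on red cells, had the highest mean of the list, with 1.67 to 4.14 CPM. Ermap and Btnl9, the other tested genes of this list, had negative log2 fold changes (-0.18 and -0.70). Btnl9 was also named after its values were seen. Of 20 keratinocyte genes for ligands and factors that act on epidermal T cells 15 were tested, 0 rose and 1 fell. It was Ccl28, a chemokine of epithelia, which fell from 4.05 and 2.78 CPM in controls to 0.445 and 0.176 CPM in mutants (log2 fold change -3.55 ± 0.70 SE, adjusted p = 0.0120, edgeR quasi-likelihood test). That call was lost without control replicate 1 (adjusted p = 0.150) or control replicate 2 (0.0635). Cdh1, E-cadherin, was the most abundant of this list, with 1232 to 1624 CPM.

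Markers of other cell types and of keratinocyte layers were read beside these values. Of the 11 epidermal T cell markers with rows, Cd3d, Cd3g, Cd7, Klrk1 and Xcl1 had 0 reads in every library, and 1 of 3 tested rose: Thy1, which other cells of skin express too (log2 fold change 1.51 ± 0.22 SE, adjusted p = 0.0027, edgeR quasi-likelihood test, and 0.0732 without control replicate 1). The list summed to 29.4 and 36.1 CPM in controls and to 85.4 and 74.2 CPM in mutants, nearly all of it Thy1 and Ptprc, the pan-leukocyte CD45 gene, neither of which is specific to T cells. Ptprc was at 10.8 and 11.6 CPM in controls and at 16.9 and 27.0 CPM in mutants (edgeR adjusted p = 0.0677). Cd3e, a T cell receptor subunit, had 6 and 11 reads in controls and 0 and 1 in mutants. Cd247, another subunit, went the other way, with 4 and 3 in controls and 17 and 4 in mutants. Il2rb had 4 and 22 in controls and 12 and 2 in mutants. Cd3e, Cd247 and Il2rb, like Ptprc, were named after their values were seen, and such low counts give no direction for T cells. None of 6 tested Langerhans cell markers was called. Their sums were 235 and 452 CPM in controls and 232 and 496 CPM in mutants, led by Cd74, so that replicate 2 was higher in both groups, and Cd207 had 0 reads in 3 libraries and 11 in mutant replicate 2. In keratinocytes, 1 of 7 basal genes fell (Krt15, log2 fold change -0.78 ± 0.18 SE, adjusted p = 0.0254, edgeR quasi-likelihood test, lost without control replicate 1 or 2 at 0.389 and 0.134), 0 of 6 spinous genes were called, and 1 of 6 granular genes fell (Tgm3, log2 fold change -2.05 ± 0.37 SE, adjusted p = 0.00796; without control replicate 2, where it was at 92.8 CPM against 36.0 in the other control, -1.22 and 0.0739). Basal genes summed to 30280 and 33850 CPM in controls and to 23710 and 20920 CPM in mutants, led by Krt5. Spinous genes, led by Krt1, summed to 3681 and 4335 CPM in controls and to 2587 and 4310 CPM in mutants. Granular genes, led by Casp14, summed to 139 and 199 CPM in controls and to 105 and 97.8 CPM in mutants. Of 6 hair follicle genes Lhx2 and Krt79 rose and Tchh fell (log2 fold changes 1.83, 1.25 and -1.87), with Krt79 lost without control replicate 1, control replicate 2 or mutant replicate 2 (edgeR adjusted p = 0.352, 0.149 and 0.0669) and with limma-voom (0.0662). The list, led by Krt17, summed to 504 and 492 CPM in controls and to 742 and 855 CPM in mutants, in cells sorted from between the follicles. Of 6 fibroblast markers Dcn rose (log2 fold change 0.60, adjusted p = 0.0446, edgeR quasi-likelihood test, and 0.150 and 0.510 without control replicate 1 and 2), and the list, led by Col1a1, summed to 1374 and 1444 CPM in controls and to 2074 and 1862 CPM in mutants. Of the melanocyte markers 2 were tested and of the endothelial markers 3, and none was called by edgeR; the highest means were those of Pmel (6.999 to 9.211 CPM) and Cdh5 (5.54 to 15.0 CPM). Their part in the Skint values was not tested, and fewer cells of a type and less RNA per cell cannot be told apart in bulk RNA.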

How the data were processed

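Per the labels' protocols, total RNA of sorted newborn epidermal cells was amplified (Ovation V2 kit) and sequenced as single reads of 100 nucleotides. Build mm10 and, as tools without a stated role, DESeq2 1.6.3, HTSeq 0.6.1, TopHat2 2.0.13 and Cufflinks 2.2.1 are listed in the submitters' processing notes. Annotation and strand setting: not given in the sources used here. Raw counts per gene symbol are what the authors deposited. Library totals were 15505018 to 21543385 counts, and at least 99.89% lay in tested genes.

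Genes were filtered with filterByExpr (minimum count 10, total 15), scaled with TMM and compared with edgeR 4.0.16 (glmQLFit, glmQLFTest, no block). Tests were two-sided, and genes with a Benjamini-Hochberg p under 0.05, adjusted over 14550 genes, were called. The newer form of the fit (legacy=FALSE) was taken after the default, an added alternative, had also been run. The code was checked on simulated data. CPM values are counts over the scaled library size. GENCODE M21 on GRCm38 matched 97.3% of symbols and gave positions and lengths; promoters came from RefSeq. Coding sequences were aligned with Biopython 1.88. Alternatives were RLE and upper-quartile scaling, 2 other filters, a robust and an earlier fit, DESeq2 1.42.0, limma-voom (limma 3.58.1), a replicate block, GC content and length offsets (loess, span 0.5), and each library left out. All members were named. From each list up to 3 called genes and the gene of highest mean were named, and the 5 genes of nearest profile (log2 of CPM + 0.5, mean of at least 1 CPM). Further genes were named after their values were seen (Btn1a1, Btn2a2, Btnl9, Ptprc, Cd3e, Cd247, Il2rb, Cd207 and markers at 0). The members and lists were chosen with earlier results of these data known. No group had over 2 libraries, so none could be searched for outlying samples.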

Additional observations from a re-analysis of the deposited data

How the results depend on the processing

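No Skint member was called under 14 of 15 alternatives; the exception was the fit without mutant replicate 1, which called Skint1, so that leaving out 1 library gave 0 to 1 called members. The direction turned for 4 members, none of them called there. Over the fits that leave out 1 library, the log2 fold change ran from -0.92 to 0.0885 for Skint1, from -1.27 to 0.17 for Skint3, from -0.0935 to 0.29 for Skint7 and from -0.66 to 0.45 for Skint8. Skint8 was also slightly negative with the replicate block (-0.0344), with GC content and length offsets together with the replicate block (-0.0629) and with limma-voom (-0.0183). Skint4, Skint6 and Skint9 were lower in the mutant under all 15. The filter at 1 CPM in 2 libraries left Skint3 untested. The cause was not tested. Summed Skint CPM stayed at 64.4 in controls under RLE and upper-quartile scaling and at 53.9 and 53.8 in mutants. Over all genes, 977 calls (826 higher, 151 lower) became 297 to 1520 with 1 library left out: 297 and 326 without control replicate 1 and 2, and 1489 and 1520 without mutant replicate 1 and 2. GC content and length offsets gave 718 higher and 589 lower genes and shifted the median over all genes to -0.13 (log2), and with the replicate block 2132 genes were called (1055 higher, 1077 lower). The replicate block alone gave 1274 calls and 0 Skint members. Same-numbered libraries deviated together only weakly (r = 0.041 over genes), and the labels state no pairing. A correlation over all genes cannot show whether same-numbered libraries were handled together, so a pairing or batch stays possible. The members not tested, and Skint3 and Skint6 with at most 28 reads a library, are limited by depth.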
